A study of Mus musculus with 48 samples.

Results

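MicroRNA features are the entries of a gene table that stand for microRNA hairpins. They were followed here in newly made RNA from mouse embryonic stem cells. The 16 features described were chosen by their summed count: symbols that start with Mir and a digit, do not end in hg, and held at least 480 counts over the 48 libraries. They were 16 of 1167 such symbols, among 55291 symbols in each table. The choice used only summed counts, so the levels below are descriptions. Mir142b (519 counts) and Mir3074-2 (499 counts) stood just inside the threshold, and Mir3544 (472 counts) and Mir219a-2 (461 counts) just outside. All 16 passed the filter on low counts that came before the tests.

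Cells of strain 129S5/SvEvBrd were given a pulse of 5-ethynyluridine (EU), a uridine analogue by which nascent RNA can be captured. They carried either Smarce1-MD, a form of the chromatin remodelling subunit SMARCE1 set up for degradation in mitosis (called MD here, clones MD09 and MD30), or Smarce1-MD(R42A), the R42A form of the same construct and here the control (R42A, clones A04 and A10). The samples of each clone were asynchronous cells and cells held in mitosis with nocodazole, a microtubule poison, and shaken off. The mitotic cells were taken straight away (0 min) and 45, 90, 180 or 240 min later. The labels list washes for the cells taken at 45 to 240 min and none for those at 0 min. Every clone and state had 2 libraries, so each of the 12 groups of genotype and state had 4. The study asked how the loss of SMARCE1 in mitosis affects the return of transcription afterwards. The degradation acts on the protein, so counts of Smarce1 do not check the labels.

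MicroRNAs are short RNAs cut from hairpins in longer primary transcripts, first by Drosha with Dgcr8 in the nucleus and then by Dicer1 in the cytoplasm. They guide Argonaute proteins to target transcripts, mainly by the bases near the 5′ end called the seed. In mouse embryonic stem cells the miR-290 and miR-302 clusters are known as the leading families, while let-7 is held back by Lin28a and Lin28b until the cells differentiate. A count on a microRNA feature here is a read over the place of the hairpin in the genome, which need not measure the mature microRNA or even its primary transcript.

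The place of these features showed first in their sequences. In 3 of the 16 the hairpin is the reverse complement of a second annotated hairpin on the other strand. They are shown because the reads of such a pair fall on the same bases. Capitals mark the bases shared with the partner, 5′ to 3′, from RefSeq on GRCm38.p6. Mir290b (minus strand, chr7:3218638-3218695) lies wholly within Mir290a (plus strand, chr7:3218626-3218708), the first hairpin of the miR-290 cluster, and all 58 of its bases are shared. Mir142b (minus strand, chr11:87756841-87756955) holds the whole of Mir142 (plus strand, chr11:87756864-87756927), the hairpin of a microRNA best known from blood cells, and shares 64 bases. Mir3074-2 (minus strand, chr8:84208825-84208907) lies within Mir24-2 (plus strand, chr8:84208815-84208921) and shares all 83 of its bases.
Mir290b: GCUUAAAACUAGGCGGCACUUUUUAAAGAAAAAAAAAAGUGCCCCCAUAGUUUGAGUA
Mir290a: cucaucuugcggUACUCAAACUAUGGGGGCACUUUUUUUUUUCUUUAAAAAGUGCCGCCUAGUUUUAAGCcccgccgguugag
Mir142b: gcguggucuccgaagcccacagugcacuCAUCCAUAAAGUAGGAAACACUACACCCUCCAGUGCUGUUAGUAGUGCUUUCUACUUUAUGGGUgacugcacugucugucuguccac
Mir142: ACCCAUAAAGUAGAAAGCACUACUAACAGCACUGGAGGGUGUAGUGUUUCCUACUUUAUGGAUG
Mir3074-2: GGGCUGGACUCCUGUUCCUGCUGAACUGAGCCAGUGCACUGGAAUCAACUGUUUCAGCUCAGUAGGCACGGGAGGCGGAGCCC
Mir24-2: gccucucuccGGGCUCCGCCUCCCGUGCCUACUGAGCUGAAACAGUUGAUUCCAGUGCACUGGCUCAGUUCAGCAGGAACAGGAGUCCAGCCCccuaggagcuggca

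The mature microRNAs of the features on which the results turn are shown with the seed, bases 2 to 8, in capitals. A mature sequence was held for 14 of the 16 features. No seed was shared between the members themselves. Outside the members, the seed of miR-199a-3p was shared with miR-199b-3p, that of miR-6346 with miR-6350, and that of miR-762 with miR-6940-5p and miR-7648-3p. The seed of miR-290b-3p is like that of miR-290a-3p, the partner on the other strand, shifted by 1 base, but its last base differs.
miR-142b: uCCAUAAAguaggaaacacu
miR-290b-3p: aAGUGCCCccauaguuugagua
miR-290a-3p: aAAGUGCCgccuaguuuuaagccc
miR-3074-2-3p: uGUUUCAGcucaguaggcac
miR-378b: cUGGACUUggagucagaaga
miR-199a-3p: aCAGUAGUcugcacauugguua
miR-199a-5p: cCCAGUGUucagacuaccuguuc
miR-6398: gUCAAUGAaccucagguaagg
miR-6346: uAGCAGGUgucugcaaugccaa
miR-1905: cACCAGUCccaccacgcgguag
miR-467f: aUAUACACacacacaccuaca
miR-762: gGGGCUGGggccgggacagagc
miR-6340: gUCAGCAGcagcuucgcuuuggc
miR-6385: gCAAGGAUgacagagaggaag
miR-150-3p: cUGGUACAggccugggggauag

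Of the 16 features, 15 overlapped an annotated gene on the other strand, and Mir150 overlapped none. None lay on the same strand as a gene around it. The same split held over the 1163 microRNA features that GENCODE M21 places. Of the 131 that overlap a gene on the other strand, 114 (87.0%) had a count, and together they held 26369 counts, or 83.98% of all microRNA counts. Of the 721 inside or over a gene on the same strand, 18 (2.5%) had a count, with 168 counts in all (0.54%). The 93 with genes on both strands held 231 counts, and the 218 with no overlapping gene held 4630 counts. Of the 31398 microRNA counts, most were therefore credited to features opposite another gene. Whether the counting used strand, and how a read over more than 1 gene was assigned, is not given in the sources used here. In the pair of Mir290b and Mir290a, which share 58 bases, Mir290b held 1577 counts and Mir290a 99. Which strand the reads of a feature came from was not tested. A count on a feature may thus be a read from RNA of the gene opposite it, for 15 of the 16 features below.

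**Figure D1:**
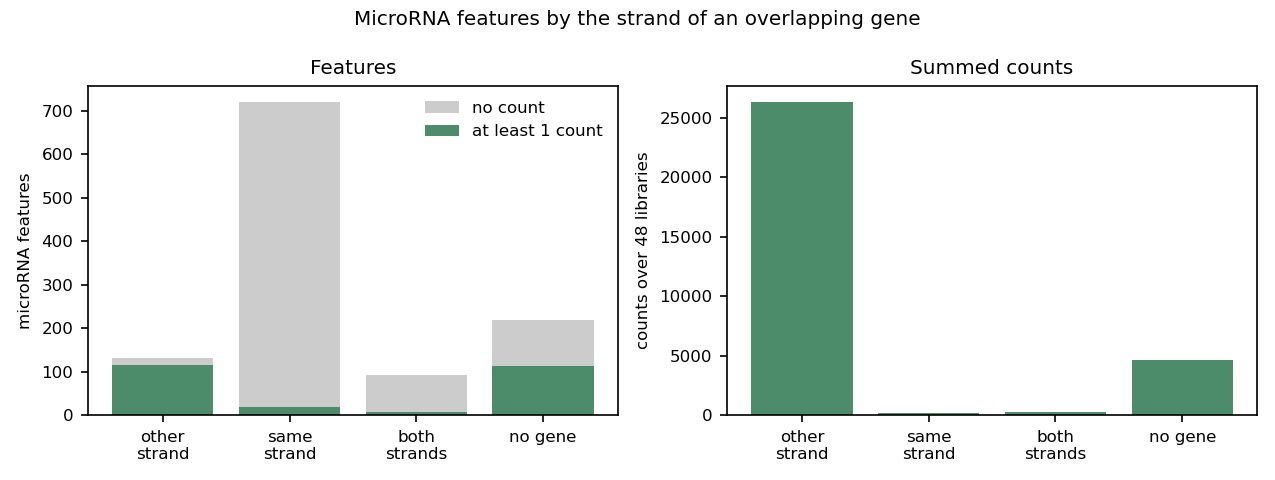
The left panel gives the number of microRNA features by the strand of an overlapping gene, with those holding at least 1 count in green, and the right panel gives their summed counts over 48 libraries. Features opposite a gene hold 26369 of the 31398 counts, while the 721 on the same strand as a gene hold 168.

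The surrounding genes are known for other roles. There were 5 features in introns: Mir378b (chr11:88352773-88352864) in Msi2, an RNA-binding regulator of stem cells; Mir6346 (chr1:118954220-118954300) in Gli2, a transcription factor of Hedgehog signalling; Mir6398 (chr4:123616420-123616521) in Macf1, a linker of actin and microtubules; Mir199a-1 (chr9:21496495-21496564) in Dnm2, a dynamin of endocytosis; and Mir467f (chr11:69635400-69635519) in Fxr2, an RNA-binding relative of the fragile X protein. In exons lay 7: Mir1905 (chr3:88536301-88536382) in the coding sequence of Mex3a, Mir6385 (chr9:58221150-58221254) in a UTR of Pml, Mir1957b (chr8:111450200-111450322) in a UTR of Wdr59, Mir762 (chr7:127708487-127708562) near the start of Bcl7c, Mir6340 in Rab22a, Mir6376 in Rpn1, and Mir6357 over an exon edge of Poli. Bcl7c is itself a subunit of the SWI/SNF complex to which SMARCE1 belongs. Mir142b lay in an intron of Mir142hg, the transcript that carries Mir142. Whether the counting used strand is not given for the surrounding genes either. Counts on their symbols, used below, need not measure their transcription. Coordinates are of mm10.

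Library totals ran from 630119 to 3885219 counts. Of the stem cell markers fixed as a check, the summed level was 378 to 1363 CPM (counts divided by the library's gene total and put on one scale, median 964) over the libraries. Esrrb made up most of it, with a median of 802 CPM. The other stem cell markers had medians of 12.9 CPM (Dppa5a) to 53.3 CPM (Zfp42), and Sox2 was at 0 in every library. Over the libraries, fibroblast feeder genes summed to 0.913 to 30.5 CPM, primitive endoderm to 4.07 to 46.5 CPM, neural to 6.59 to 88.0 CPM and trophoblast to 0 to 35.03 CPM. Single genes of these lists, such as Neurod1 (16.2 CPM) and Pax6 (12.8 CPM), were at the level of the lower stem cell markers. The 4 MD libraries at 90 min stood apart. They held 630119 to 1518400 counts, against 2653313 to 3149721 in R42A libraries at 90 min, and their mitochondrially encoded share was 0.529 to 4.31%, against 0.183 to 0.217%. The 2 MD09 libraries also held 61437 and 148248 counts of 1 feature, CT010467.2, which had 598 to 716 counts in each of the other 46 libraries. In both MD clones the replicate 1 libraries at 90 min also differed from the replicate 2 libraries in several members, so the members called at 90 min are given with and without replicate 1.

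Levels of the 16 features were low and differed between states. Their summed level in MD libraries had a median of 226.9 CPM in asynchronous cells, 224.8 CPM at 0 min, 167.1 CPM at 45 min, 238.0 CPM at 90 min, 164.4 CPM at 180 min and 166.4 CPM at 240 min. In R42A libraries it was 204.9 CPM in asynchronous cells and then 257.5, 153.6, 162.0, 151.8 and 163.9 CPM at the same times. CPM rest on library totals alone, while the tests below add a further scaling, so changes in CPM and tested changes can differ. Per kilobase, Mir1905 was the highest in asynchronous cells, at 465 CPM per kb in MD and 399 CPM per kb in R42A cells. Mir290b was next, at 371 CPM per kb in MD and 324.5 CPM per kb in R42A cells. The lowest was Mir142b in R42A cells, at 11.4 CPM per kb, against 115 CPM per kb in MD cells. On the CPM scale Mir1905 averaged 38.1 ± 0.889 CPM in MD against 32.7 ± 3.53 CPM in R42A asynchronous cells (SD, n = 2 clones each), and Mir290b 21.5 ± 3.42 CPM in MD against 18.8 ± 2.24 CPM in R42A cells.

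**Figure D2:**
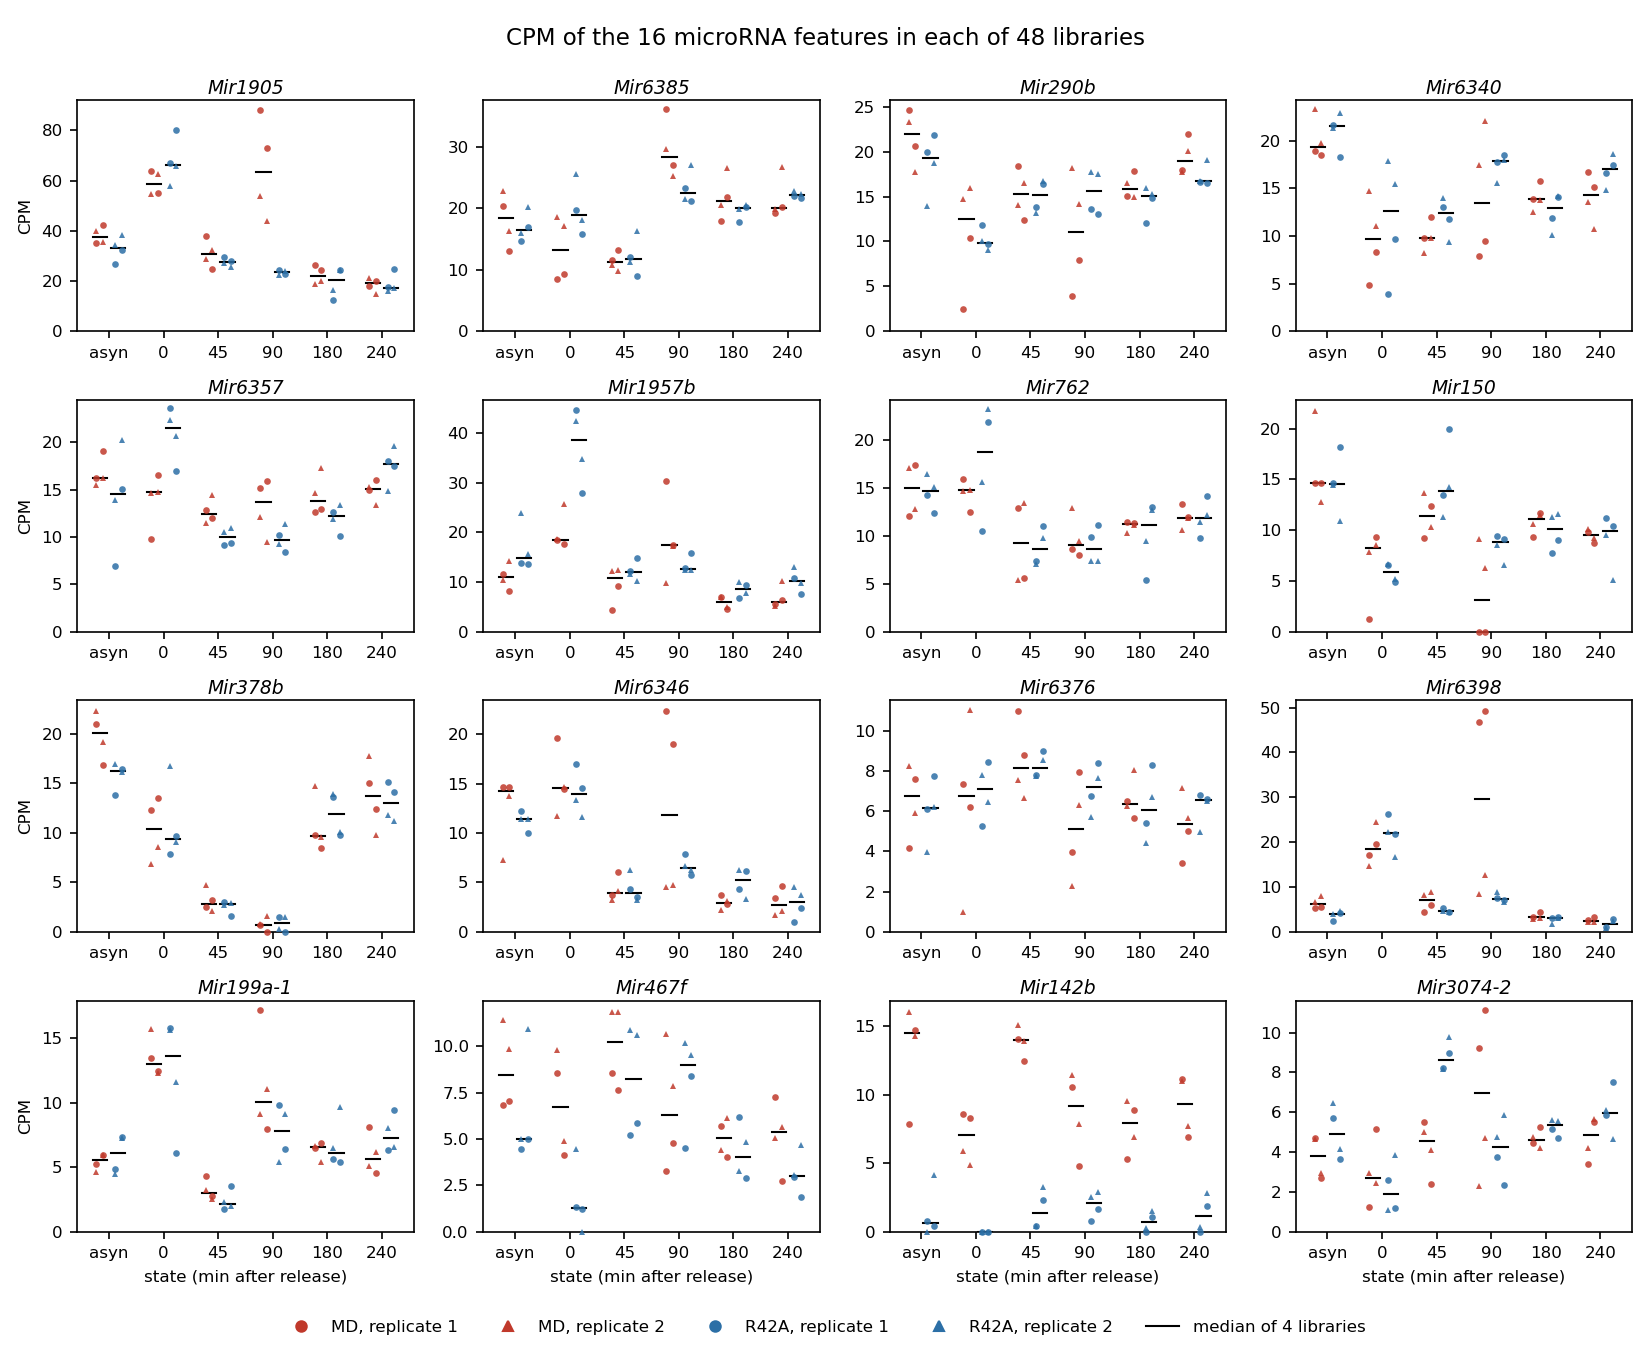
Each panel is 1 microRNA feature, with CPM on the y axis and state on the x axis (asyn is asynchronous, then minutes after release); points are libraries (circles replicate 1, triangles replicate 2), side by side for the 2 clones of a genotype (MD09 left of MD30, A04 left of A10), and bars are medians of 4 libraries. Mir378b is at 0 to 1.57 CPM at 90 min in both genotypes, and in MD cells at 90 min the replicate 1 libraries of Mir6398 (46.8 and 49.2 CPM) stand above the replicate 2 libraries (8.35 and 12.6 CPM).

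Members of the known stem cell families were few among the 16. Of the 9 hairpins listed for the miR-290 cluster, 8 had a count and summed to 1987 counts. Of these, 1577 were on Mir290b, which lies on the other strand, and 99 on its partner Mir290a. All 5 hairpins of the miR-302 cluster had counts, 719 together and at most 192 on 1 hairpin, and all lie opposite the gene Larp7. The miR-17 cluster and its paralogues had 5 counts over 15 hairpins, although the host transcript Mir17hg had 285. Let-7 and miR-98 had 6 counts over 12 symbols, and the 5 hairpins of the miR-200 family had 0. The miR-200 hairpins, Mir98, and the miR-17 family hairpins within Mir17hg or Mcm7 lie on the same strand as a gene. Of all 721 microRNA features so placed, 2.5% had a count. The low counts therefore need not measure the levels of these families.

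Mir142b stood higher in MD than in R42A libraries in every state. Its counts were 450 in MD libraries and 69 in R42A libraries, so it passed the summed threshold through the MD libraries, and its values between genotypes are a description, with no test. In asynchronous cells it had 7.86 and 16.05 CPM in MD09 and 14.7 and 14.3 CPM in MD30, against 0.815 and 0 CPM in A04 and 0.456 and 4.16 CPM in A10. At 0 min MD09 had 8.58 and 5.87 CPM and MD30 8.28 and 4.90 CPM, against 0 in all 4 R42A libraries. At 45 min MD09 had 14.1 and 15.1 CPM and MD30 12.4 and 13.9 CPM, against 0.433 and 0.389 CPM in A04 and 2.35 and 3.26 CPM in A10. In each of the 6 states the lowest MD library was above the highest R42A library, and the A04 libraries were under those of A10 at 45, 180 and 240 min.

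As a description, the log2 difference of Mir142b between MD and R42A cells in the edgeR fit was 3.22 in asynchronous cells. It was 2.97 at 45 min, 2.34 at 90 min, 3.45 at 180 min and 2.85 at 240 min. These sizes are no support for a difference, since the feature was chosen through its counts in MD libraries. At 0 min, with 25 counts in MD and 0 in R42A libraries, the level was at least 7.50-fold higher in MD cells, set against 3 counts over the R42A group. The size moved with the R42A libraries left out. Without A10 it was 4.66 in asynchronous cells and 4.84, 5.45 and 5.27 at 45, 180 and 240 min, and without A04 it was 2.51, 2.17, 2.45 and 1.88. Without the single library A10 replicate 2 it was 4.68 in asynchronous cells, 4.06 at 180 min and 3.53 at 240 min, and without all replicate 2 libraries it was 3.92 in asynchronous cells and 3.13 at 90 min. Without MD09 it was 1.35 at 90 min. A fit without a clone takes the spread of the lone clone from the other groups. With 2 clones per genotype, a difference between genotypes and one between clones cannot be told apart further.

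The transcript around it moved the same way in 4 states. Tests were by edgeR's quasi-likelihood test with Benjamini-Hochberg adjustment over 23874 features, and sizes are log2 differences ± SE. Mir142hg was higher in MD than in R42A cells by 2.39 ± 0.79 in asynchronous cells (edgeR adjusted p = 0.0484) and 1.78 ± 0.53 at 45 min (adjusted p = 0.0227). It was higher by 2.49 ± 0.69 at 180 min (adjusted p = 0.0178) and 2.84 ± 0.79 at 240 min (adjusted p = 0.022). At 0 min it had 20 counts in MD and 2 in R42A libraries, a ratio of 9.01 (95% exact interval 2.19 to 79.5, for counting error only). At 90 min it had 1 count in MD and 26 in R42A libraries, a ratio of 0.108 (95% exact interval 0.00263 to 0.657), while Mir142b had 39 counts in MD and 23 in R42A libraries. The 90 min difference of Mir142hg did not pass the test (-2.94 ± 1.47, adjusted p = 0.121). Mir142 itself had 0 counts in all libraries. The 4 calls of Mir142hg ended without MD09 or without MD30 (adjusted p of 0.144 to 0.324), and those in asynchronous cells and at 45 min also without A04 (1.41 and 0.95, adjusted p = 0.145 and 0.118). Without A10 the asynchronous and 45 min values were 7.44 and 3.84. The asynchronous, 180 min and 240 min calls ended without replicate 1 (2.07, 2.21 and 2.52), and the asynchronous and 45 min calls without replicate 2 (2.87 and 1.32). Single libraries ended the asynchronous call too (adjusted p of 0.0626 to 0.0983 without any of 6), as did those of A04 at 240 min and replicate 2 of MD09 at 45 min (adjusted p = 0.0504, 0.0534 and 0.0764).

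**Figure D3:**
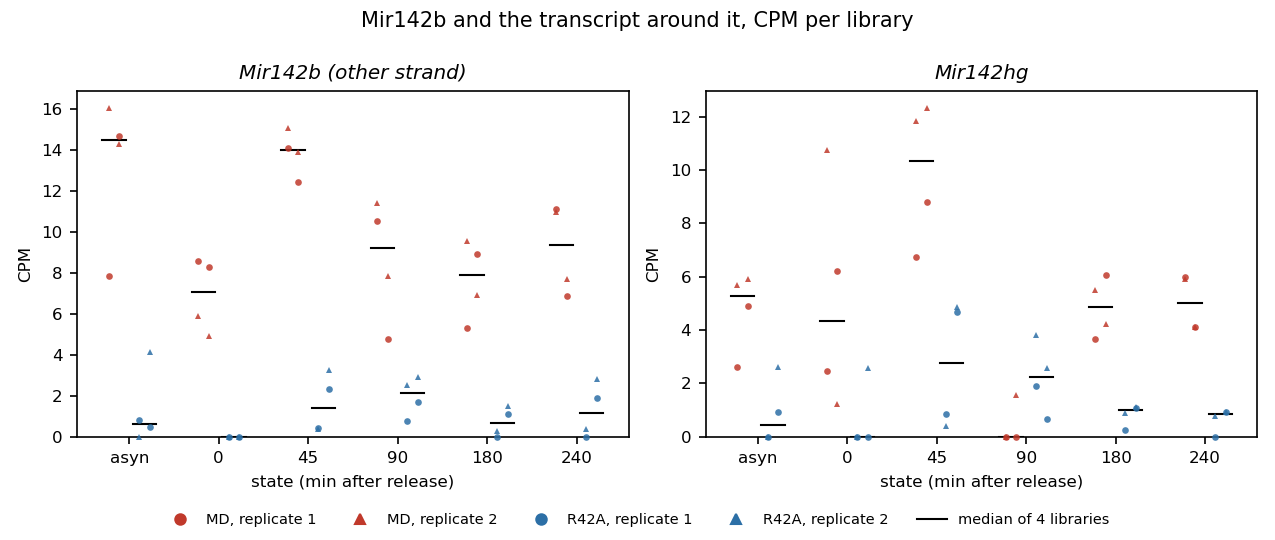
CPM per library (y axes) of Mir142b, which lies on the other strand, and of Mir142hg by state (x axes); points and bars are as in the plot of all 16 features. The MD libraries of Mir142b lie above the R42A libraries in all 6 states, and Mir142hg is at 0 CPM in 3 of the 4 MD libraries at 90 min.

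Few members were called between genotypes outside 90 min. The numbers of higher members below include Mir142b, which passed the summed threshold through the MD libraries, so they are descriptions. The lower member at 45 min is Mir3074-2, which its R42A libraries there helped past the threshold, so it is a description too. In asynchronous cells 1 of 16 was higher in MD cells (5.18% of all features tested were) and 0 lower (7.95%). At 0 min 0 were higher (3.71%) and 1 lower (2.95%). At 45 min 1 was higher (10.3%) and 1 lower (7.33%), at 180 min 1 was higher (6.55%) and 0 lower (7.46%), and at 240 min 1 was higher (6.13%) and 0 lower (4.43%). By unadjusted p under 0.05, 1 was lower in asynchronous cells, 2 higher at 0 min, 2 lower at 180 min and 1 lower at 240 min, and DESeq2 called 0, 1, 0 and 0 of these. The medians of the 16 members were 0.014, -0.23, -0.111, 0.065 and -0.047 in these 5 comparisons, and those of all features -0.047, 0.001, 0.008, -0.024 and 0.005. The single higher call was Mir142b each time, so apart from it 0 members were called higher and 2 lower in these 5 comparisons.

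Mir1957b, opposite Wdr59, was lower in MD cells at 0 min. It had 18.4 and 18.6 CPM in MD09 and 17.6 and 25.7 CPM in MD30, against 44.6 and 42.4 CPM in A04 and 27.9 and 34.8 CPM in A10. The groups did not overlap, and the fall was -0.98 ± 0.27 (edgeR adjusted p = 0.0211). Wdr59, a component of nutrient signalling to mTORC1, differed there by -0.00 ± 0.18 (adjusted p = 0.994). The call ended without A04 (-0.65, adjusted p = 0.342), MD09 (-0.87, adjusted p = 0.147) or MD30 (-1.10, adjusted p = 0.074), without replicate 1 (-0.85, adjusted p = 0.171) or replicate 2 (-1.10, adjusted p = 0.131), and without 1 library, replicate 1 of A04 (-0.89, adjusted p = 0.0518) or of MD30 (-0.89, adjusted p = 0.0667).

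Mir3074-2, opposite Mir24-2, was lower in MD cells at 45 min. Mir3074-2 had 5.51 and 5.03 CPM in MD09 and 2.41 and 4.12 CPM in MD30, against 8.23 and 8.17 CPM in A04 and 8.999 and 9.76 CPM in A10. Every MD library was under every R42A library, and the fall was -1.18 ± 0.31 (edgeR adjusted p = 0.00629). It did not pass without A10 (-1.10, adjusted p = 0.0572), without MD30 (-0.94, adjusted p = 0.104) or without replicate 2 (-1.34, adjusted p = 0.0599).

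Mir290b, on the strand opposite the first hairpin of the miR-290 cluster, differed between genotypes by -0.41 to 0.15 on the log2 scale over the 6 states, with no call. Mir6376 had no call in any of the 12 comparisons between genotypes or times, and its level in MD libraries ran between 0.978 and 11.03 CPM.

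At 90 min more members differed, and 5 of the 7 calls did not hold without replicate 1. Of the 16, 6 were higher in MD than in R42A cells (15.6% of all features were) and 1 lower (22.1%). The higher ones include Mir142b, which passed the summed threshold through the MD libraries and is given as a description only. The median of the members was 0.546 and that of all features -0.133. These values depended on scaling. With DESeq2's size factors 4527 features were higher and 4302 lower, with a median of -0.001, against 3736 and 5267 with TMM. Of the members, 9 were then higher and 0 lower, with Mir3074-2 (0.92), Mir6357 (0.71) and Mir6385 (0.65) added (adjusted p = 0.0466, 0.0405 and 0.0257) and Mir150 lost. Without replicate 1 and with TMM, 2 members were higher (11.4% of 20656 features) and 0 lower (14.2%). These 2 were Mir1905 (1.15, edgeR adjusted p = 0.00124) and Mir142b (1.93, as a description only).

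Mir1905, opposite the coding sequence of Mex3a, was the member called at 90 min under every alternative. It had 88.2 and 53.9 CPM in MD09 and 73.0 and 44.0 CPM in MD30 (replicates 1 and 2 of each), against 24.5 and 22.2 CPM in A04 and 22.9 and 24.1 CPM in A10. All MD libraries were above all R42A libraries, and the rise was 1.63 ± 0.23 (edgeR adjusted p = 1.71e-06), at 1.03 without MD09 (adjusted p = 0.0132). Mex3a, an RNA-binding protein, rose by 0.51 ± 0.20 (adjusted p = 0.0382), a call that ended without replicate 1 (0.65, adjusted p = 0.0565), without replicate 2 (0.58, adjusted p = 0.0737), without MD09, MD30 or A10 (adjusted p of 0.0691 to 0.301), and without any of 4 single libraries, replicate 1 of either MD clone or replicate 2 of either R42A clone (adjusted p of 0.101 to 0.122).

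Mir6398, opposite an intron of Macf1, had 46.8 and 49.2 CPM in the replicate 1 libraries of MD09 and MD30 and 8.35 and 12.6 CPM in the replicate 2 libraries, against 7.54 and 8.89 CPM in A04 and 7.06 and 6.58 CPM in A10. The rise of 2.08 ± 0.26 (edgeR adjusted p = 1.85e-07) was 0.38 without replicate 1 (adjusted p = 0.537), 3.05 without replicate 2 and 1.28 without the single library MD09 replicate 1. Mir6346, opposite an intron of Gli2, had 22.4 and 19.0 CPM in replicate 1 and 4.56 and 4.72 CPM in replicate 2 of MD09 and MD30, against 7.92 and 6.67 CPM in A04 and 5.72 and 6.22 CPM in A10. Its rise of 1.13 ± 0.29 (adjusted p = 0.00262) turned to -0.43 without replicate 1 (adjusted p = 0.587), stood at 2.01 without replicate 2, and was 0.55 without MD09 (adjusted p = 0.417) and 0.24 without replicate 1 of MD09 alone (adjusted p = 0.659). In both features the replicate 1 libraries carry the difference.

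Mir150, the feature with no overlapping gene, showed the same split the other way. It had 0 counts in both replicate 1 libraries of MD cells and 9.11 and 6.29 CPM in the replicate 2 libraries, against 9.42 and 8.57 CPM in A04 and 9.08 and 6.58 CPM in A10. Its fall of -0.98 ± 0.36 (edgeR adjusted p = 0.0309) turned to 0.15 without replicate 1 (adjusted p = 0.837). The call also ended with DESeq2 (adjusted p = 0.152), with its size factors (adjusted p = 0.0665), with no filter (adjusted p = 0.0791) and with the libraries fitted singly (adjusted p = 0.102). Without MD09 and without replicate 2 of MD09 it was -1.70 and -2.35, and without MD30, A04 or A10 the call ended (-0.58, -0.80 and -1.055, adjusted p = 0.336, 0.155 and 0.0518), as it did without replicate 1 of MD09, MD30 or A10 or replicate 2 of MD30 (-0.98 to -0.47, adjusted p of 0.0564 to 0.41). The last of the calls were Mir1957b, at 0.67 ± 0.26 (adjusted p = 0.0434), which was 0.05 without replicate 1 (adjusted p = 0.947), and Mir199a-1, at 0.80 ± 0.31 (adjusted p = 0.0439), which was 0.48 (adjusted p = 0.434). Without the 1 library MD09 replicate 1 they were -0.04 and 0.25 (adjusted p = 0.944 and 0.629), and without MD09 they were 0.08 and 0.03 (adjusted p = 0.907 and 0.976). Both also ended without A04 or A10 (adjusted p of 0.0654 to 0.106), Mir1957b without either A04 library or replicate 2 of A10 (0.63 to 0.66, adjusted p of 0.0545 to 0.0712), and Mir199a-1 without replicate 2 of A04 or replicate 1 of A10 (0.62 and 0.69, adjusted p = 0.138 and 0.0999). Mir378b, opposite an intron of Msi2, had 0.659, 0.759, 0 and 1.57 CPM in MD libraries at 90 min, against 1.51, 0.318, 0 and 1.46 CPM in R42A libraries. In MD09 the replicate 1 and 2 libraries had mitochondrial shares of 4.31 and 2.22% and in MD30 of 0.567 and 0.529%, and reads in no feature made up 94.0 and 92.3% in MD09 and 93.7 and 92.1% in MD30. The part of these in the result was not tested.

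The comparisons over time asked how each genotype entered and left mitosis. The MD and R42A comparisons shared no libraries, and the difference between genotypes in these changes was not tested. Comparisons that meet at 0 or at 45 min share those libraries. Washes are listed for the 45 min cells and not for the 0 min cells, and their part in the changes was not tested. Marker genes of other cell types moved with these states: at 0 min against asynchronous cells 3 of 3 tested primitive endoderm genes were higher, with a median of 1.489 in MD and 2.551 in R42A cells, and at 45 against 0 min 2 of 2 tested neural genes were higher, with a median of 1.197 in MD and 1.579 in R42A cells. Of 6 stem cell markers tested, 4 were lower in MD and 5 in R42A cells at 45 min. Their part in the results below was not tested. At 0 min against asynchronous cells, 2 of 16 members were higher in MD cells (18% of all features) and 6 lower (24.6%), with a median of -0.617 over members and -0.088 over all features. In R42A cells 3 were higher (19.1%) and 7 lower (27.2%), with a median of -0.162 over members and -0.072 over all features.

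Mir290b fell at 0 min in both genotypes. In MD cells it had 2.45, 14.7, 10.3 and 15.9 CPM at 0 min, against 24.6, 23.3, 20.7 and 17.7 CPM in asynchronous cells (MD09 then MD30), a fall of -1.30 ± 0.25 (edgeR adjusted p = 4.44e-05). In R42A cells it had 11.8, 10.04, 9.69 and 9.03 CPM at 0 min, against 19.96, 13.9, 21.9 and 18.7 CPM in asynchronous cells (A04 then A10), a fall of -1.28 ± 0.27 (adjusted p = 9.66e-05). No 0 min library reached the lowest asynchronous library of its genotype. Without replicate 1, which holds the lowest MD library, the MD fall was -0.62 (adjusted p = 0.139), and without replicate 2 it was -2.05.

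Mir150, the microRNA gene known from lymphocytes, fell likewise. It had 1.23, 7.83, 9.32 and 8.58 CPM at 0 min, against 14.7, 21.7, 14.7 and 12.8 CPM in asynchronous MD cells (-1.54 ± 0.31, edgeR adjusted p = 7.51e-05). R42A cells had 6.56, 6.69, 4.85 and 5.16 CPM at 0 min, against 14.7, 14.4, 18.3 and 10.9 CPM in asynchronous cells (-1.72 ± 0.33, adjusted p = 3.33e-05). Neither pair of groups overlapped. Without MD09 the fall in MD cells was -0.975 (adjusted p = 0.0855), and without MD30 it was -2.16.

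Mir6340, opposite the small GTPase gene Rab22a, fell by -1.36 ± 0.27 in MD cells (edgeR adjusted p = 4.96e-05) and by -1.21 ± 0.26 in R42A cells (adjusted p = 0.000146), the second of these not without replicate 1 (-0.64, adjusted p = 0.123) and at -1.82 without replicate 2. Mir378b fell by -1.30 ± 0.26 in MD (adjusted p = 9.39e-05) and by -0.91 ± 0.27 in R42A cells (adjusted p = 0.00551). Without replicate 2 the MD fall was -0.83 (adjusted p = 0.082), and the R42A fall was -0.66 without A10 (adjusted p = 0.186) and -0.57 without replicate 1 (adjusted p = 0.24).

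Mir6398 moved the other way. It had 17.2, 14.7, 19.7 and 24.5 CPM at 0 min, against 5.24, 6.73, 5.44 and 7.88 CPM in asynchronous MD cells, a rise of 1.22 ± 0.31 (edgeR adjusted p = 0.00133). In R42A cells it had 26.2, 22.3, 21.8 and 16.8 CPM at 0 min, against 2.44, 3.98, 4.11 and 4.67 CPM in asynchronous cells, a rise of 2.14 ± 0.33 (adjusted p = 6.98e-07). All 0 min libraries were above all asynchronous ones in both genotypes. The MD rise was 1.12 without MD30 (adjusted p = 0.0667).

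Apart from Mir142b, the remaining calls at 0 min were each made in 1 genotype. Mir199a-1, one of the loci of miR-199a, rose by 0.96 ± 0.34 in MD cells (edgeR adjusted p = 0.0187) and stood at 0.65 ± 0.34 in R42A cells (adjusted p = 0.112). The MD call ended without MD09 (0.68, adjusted p = 0.315), without replicate 2 (0.92, adjusted p = 0.147) and without the asynchronous replicate 2 of MD09 (0.84, adjusted p = 0.0504). Mir1905 rose by 0.65 ± 0.20 and Mir1957b by 0.78 ± 0.24 in R42A cells (adjusted p = 0.00778 and 0.00579), against 0.27 ± 0.20 and 0.49 ± 0.28 in MD cells. Without A10 these R42A rises were 0.64 and 0.84 (adjusted p = 0.0892 and 0.0506). Mir1905 was also at 0.52 without replicate 1 (adjusted p = 0.0872), and Mir1957b at 0.84 without A04 (adjusted p = 0.0788).

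Mir467f fell by -2.12 ± 0.52 in R42A cells (edgeR adjusted p = 0.000846) and stood at -0.71 ± 0.35 in MD cells (adjusted p = 0.104), with the R42A value at -1.03 without A10 (adjusted p = 0.246), -3.825 without A04 and -3.18 without the 0 min replicate 2 of A04. Mir3074-2 fell by -1.60 ± 0.52 in R42A cells (adjusted p = 0.0102), against -0.64 ± 0.50 in MD cells (adjusted p = 0.31). Without A04 its R42A value was -0.89 (adjusted p = 0.402), without the 0 min replicate 2 of A04 -1.29 (adjusted p = 0.0606), and without replicate 1 or 2 -1.37 and -1.58 (adjusted p = 0.114 and 0.108). Mir6385, opposite the gene of the nuclear body protein Pml, fell by -0.76 ± 0.28 in MD cells (adjusted p = 0.0226), a call that ended in 12 of 22 alternatives. Among these were leaving out A04, MD09 or MD30 (-0.61, -0.56 and -0.89, adjusted p = 0.104, 0.297 and 0.057), replicate 1 (-0.31, adjusted p = 0.498), the asynchronous replicate 2 of MD09 (-0.68, adjusted p = 0.0552), and the 0 min replicate 1 of MD09 or MD30 (both -0.61, adjusted p = 0.0915 and 0.102). Mir142b fell by -1.29 ± 0.37 in MD cells (adjusted p = 0.00408) and was -1.03 without MD30 (adjusted p = 0.136) and -0.71 without replicate 2 (adjusted p = 0.299), and ended with no clone term (adjusted p = 0.105). In R42A cells it had 0 counts at 0 min and 11 in asynchronous cells, so its asynchronous level was at least 1.39-fold higher, set against 3 counts over the 0 min group. That R42A call (adjusted p = 0.0202) ended without A10 (adjusted p = 0.378), without A04 (adjusted p = 0.0506), without replicate 2 (adjusted p = 0.295), with DESeq2 (adjusted p = 0.0605), with no clone term (adjusted p = 0.162) and without any of 3 single A10 libraries, asynchronous replicate 2 or either at 0 min (adjusted p of 0.0613 to 0.164).

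**Figure D4:**
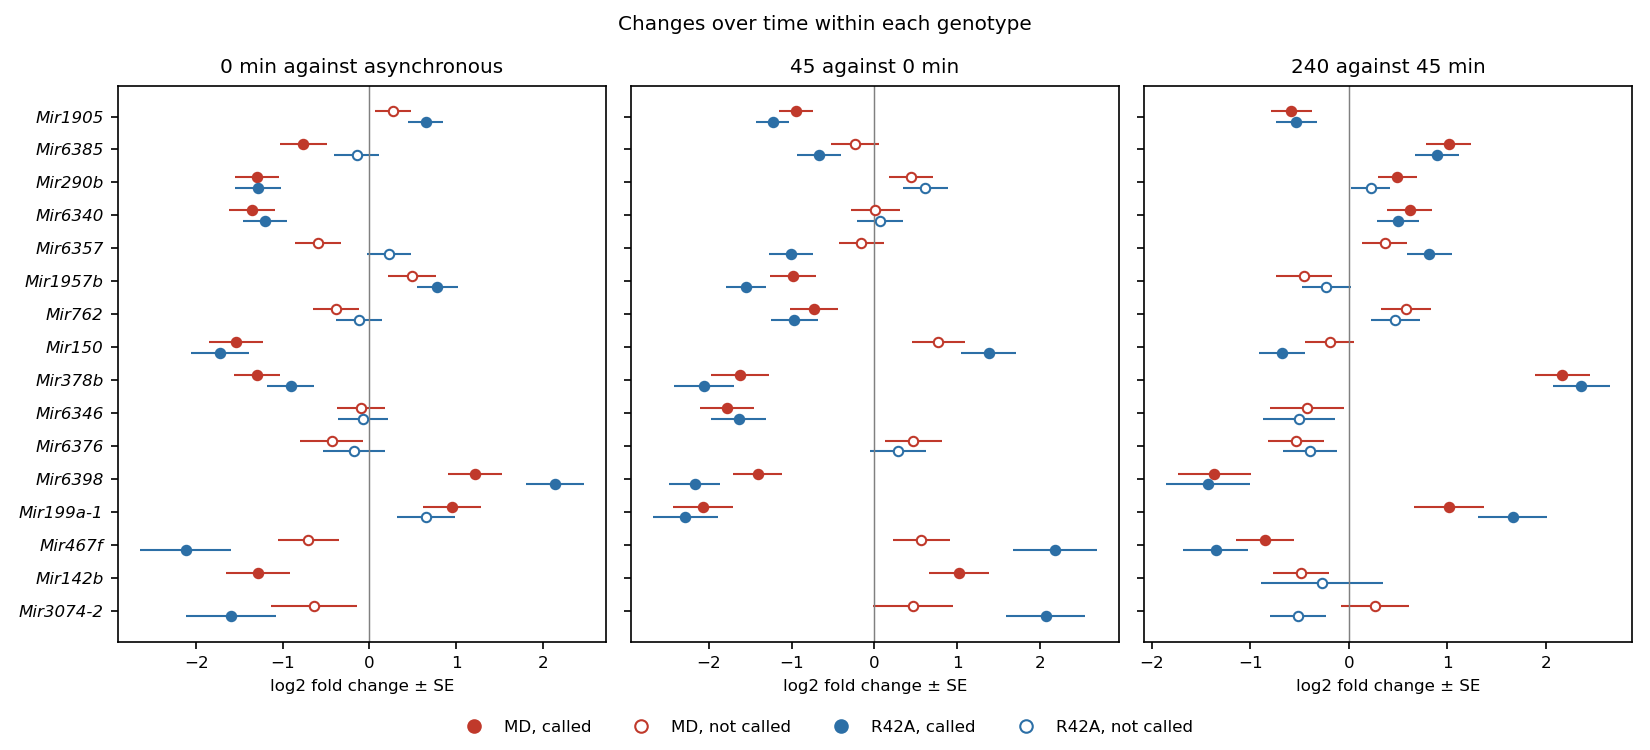
Log2 fold change ± SE (x axes) of each microRNA feature in the 3 comparisons over time, with MD above R42A for each feature and filled points for calls at an adjusted p under 0.05. Mir142b in R42A cells is left out where its 0 min group held 0 counts. Mir378b is lower at 45 min and higher at 240 min in both genotypes.

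At 45 against 0 min, lower members outnumbered higher ones. In MD cells 1 of 16 was higher (23.1% of all features) and 7 lower (17.1%), with a median of -0.195 over members and 0.095 over all features. In R42A cells 4 were higher (25%) and 9 lower (21.6%), with a median of -0.817 over members and 0.03 over all features. The background in MD cells depended on scaling. TMM gave 5515 features higher and 4080 lower, and DESeq2's size factors gave 4460 higher and 5032 lower, with 0 members higher and 7 lower.

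The 4 intronic features farthest from the start of their gene fell most. Mir199a-1 had 4.28, 3.23, 2.81 and 2.57 CPM at 45 min, against 13.5, 15.7, 12.4 and 12.3 CPM at 0 min in MD cells, a fall of -2.07 ± 0.36 (edgeR adjusted p = 1.06e-05). R42A cells had 1.73, 2.33, 3.52 and 2.03 CPM at 45 min, against 15.7, 15.6, 6.06 and 11.6 CPM at 0 min, a fall of -2.28 ± 0.39 (adjusted p = 4.59e-06), at -1.60 without A04 (adjusted p = 0.0314). No 45 min library reached a 0 min library in either genotype. Counts on the symbol of the surrounding gene Dnm2 rose at the same time, by 0.75 ± 0.15 in MD (adjusted p = 7.7e-05) and by 0.87 ± 0.15 in R42A cells (adjusted p = 5.73e-06). They need not measure transcription of Dnm2.

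Mir6398 fell by -1.41 ± 0.30 in MD cells (edgeR adjusted p = 0.000176) and by -2.17 ± 0.31 in R42A cells (adjusted p = 1.67e-07), back to 4.28 to 8.74 CPM in MD and 4.30 to 5.20 CPM in R42A libraries. Mir6346 fell by -1.78 ± 0.33 in MD (adjusted p = 2.24e-05) and by -1.64 ± 0.33 in R42A cells (adjusted p = 6.76e-05). It had 3.67, 3.23, 6.01 and 4.12 CPM at 45 min, against 19.6, 11.7, 14.5 and 14.7 CPM at 0 min in MD cells. Their surrounding genes fell less: Macf1 by -0.47 ± 0.14 in MD and -0.66 ± 0.14 in R42A cells, and Gli2 by -0.69 ± 0.16 in MD and -1.14 ± 0.16 in R42A cells. Macf1 in MD cells did not pass without MD30 (-0.44, adjusted p = 0.103).

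Mir378b had 2.45, 4.67, 3.21 and 2.06 CPM at 45 min, against 12.3, 6.85, 13.5 and 8.58 CPM at 0 min in MD cells, a fall of -1.62 ± 0.35 (edgeR adjusted p = 0.00023). R42A cells had 3.03, 2.72, 1.57 and 2.85 CPM at 45 min, against 7.87, 16.7, 9.69 and 9.03 CPM at 0 min, a fall of -2.06 ± 0.36 (adjusted p = 8.3e-06). The groups did not overlap in either genotype. In MD cells the value was -1.29 without MD30 (adjusted p = 0.058) and -1.22 without replicate 1 (adjusted p = 0.0823). Msi2 changed by 0.16 ± 0.15 in MD and -0.04 ± 0.16 in R42A cells, neither passing the test.

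Among the features opposite exons, Mir1905 and Mir1957b fell in both genotypes. Mir1905 had 37.9, 28.8, 24.9 and 32.4 CPM at 45 min, against 63.7, 54.8, 54.9 and 62.5 CPM at 0 min in MD cells (-0.95 ± 0.21, edgeR adjusted p = 0.000252). In R42A cells it had 29.5, 27.2, 28.2 and 25.6 CPM at 45 min, against 66.9, 58.0, 79.96 and 65.8 CPM at 0 min (-1.23 ± 0.20, adjusted p = 3.28e-06). Mir1957b fell by -0.99 ± 0.28 in MD (adjusted p = 0.00404) and by -1.55 ± 0.24 in R42A cells (adjusted p = 9.46e-07), and Wdr59 with it, by -1.40 ± 0.18 in MD and -1.25 ± 0.18 in R42A cells.

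Mir762, opposite the start of Bcl7c, fell by -0.73 ± 0.29 in MD (edgeR adjusted p = 0.0411) and by -0.97 ± 0.28 in R42A cells (adjusted p = 0.004). The MD call ended in 10 of 22 alternatives. These were no clone term (adjusted p = 0.0654) and leaving out MD09 or MD30 (-0.58 and -0.93, adjusted p = 0.357 and 0.0935), either replicate number (-0.86 and -0.73, adjusted p = 0.0937 and 0.199), and 5 single libraries, either of MD09 or replicate 2 of MD30 at 0 min (-0.74 to -0.67) and replicate 2 of MD09 or replicate 1 of MD30 at 45 min (-0.46 and -0.53). The R42A value was -0.83 without A10 (adjusted p = 0.135) and -0.81 without replicate 2 (adjusted p = 0.123). Mir6357 and Mir6385 passed in R42A cells, at -1.01 ± 0.26 (adjusted p = 0.00152) and -0.67 ± 0.27 (adjusted p = 0.0388), against -0.16 ± 0.27 and -0.23 ± 0.29 in MD cells. Without A04 they were -0.845 and -0.39 (adjusted p = 0.0809 and 0.52). The Mir6385 call ended further without A10, replicate 1 or replicate 2 (-0.91, -0.66 and -0.74, adjusted p = 0.0829, 0.11 and 0.115), without either A04 library at 0 min (-0.65 and -0.46, adjusted p = 0.0679 and 0.217), and without replicate 1 of A10 at 45 min (-0.49, adjusted p = 0.148).

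The features that rose in R42A cells were Mir3074-2 opposite Mir24-2, Mir467f in Fxr2, Mir150 and Mir142b. In R42A cells Mir3074-2 had 8.23, 8.17, 8.999 and 9.76 CPM at 45 min, against 2.62, 1.12, 1.21 and 3.87 CPM at 0 min, a rise of 2.07 ± 0.47 (edgeR adjusted p = 0.000376). The R42A libraries at 45 min helped Mir3074-2 past the summed threshold, so this rise is a description. The MD value of Mir3074-2 was 0.46 ± 0.48 (adjusted p = 0.464). Mir467f had 5.20, 10.9, 5.87 and 10.6 CPM at 45 min, against 1.31, 4.46, 1.21 and 0 CPM at 0 min in R42A cells (2.18 ± 0.50, adjusted p = 0.000396), and 0.56 ± 0.34 in MD cells (adjusted p = 0.192). Without A10 the R42A rise was 1.49 (adjusted p = 0.0573), and without replicate 2 it was 2.09 (adjusted p = 0.0533), while it was 3.67 without A04 and 3.33 without replicate 2 of A04 at 0 min. Mir150 rose by 1.38 ± 0.33 in R42A cells (adjusted p = 0.000683), at 0.95 without A10 (adjusted p = 0.131), against 0.77 ± 0.32 in MD cells (adjusted p = 0.0529).

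Mir142b rose by 1.02 ± 0.36 in MD cells (edgeR adjusted p = 0.0228), a call that ended in 7 of 22 alternatives. These were DESeq2, DESeq2's size factors, no clone term, and leaving out MD09 or MD30 (0.95 and 1.02, adjusted p = 0.192 and 0.127), replicate 2 (0.61, adjusted p = 0.369) or the 0 min replicate 2 of MD09 (0.88, adjusted p = 0.0841). In R42A cells it had 16 counts at 45 min and 0 at 0 min, at least 1.76-fold higher set against 3 counts over the 0 min group (adjusted p = 0.0193). That call ended with DESeq2 (adjusted p = 0.0596), with no clone term (adjusted p = 0.151), without A10 (adjusted p = 0.443), without replicate 1 or 2 (adjusted p = 0.0724 and 0.159) and without either A10 library at 0 min (adjusted p = 0.0621 and 0.057).

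Position in the surrounding gene was set beside these changes after the values were seen. Of the 12 features opposite protein-coding genes, the 4 intronic ones at 67.8 kb (Mir6398), 71.6 kb (Mir199a-1), 99.3 kb (Mir6346) and 365.6 kb (Mir378b) from the start of the gene all fell at 45 min in both genotypes. Mir467f, the intronic one at 2.4 kb, rose in R42A cells. Across the 12 features, Spearman's rho between distance and log2 change was -0.70 in MD and -0.66 in R42A cells, as a description of points that share libraries. Within the 5 intronic features it was -0.6 in MD and -0.2 in R42A cells, and within the 7 exonic features 0.04 in both. The exonic Mir762, at 0.4 kb, and Mir1905, at 3.9 kb, also fell.

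**Figure D5:**
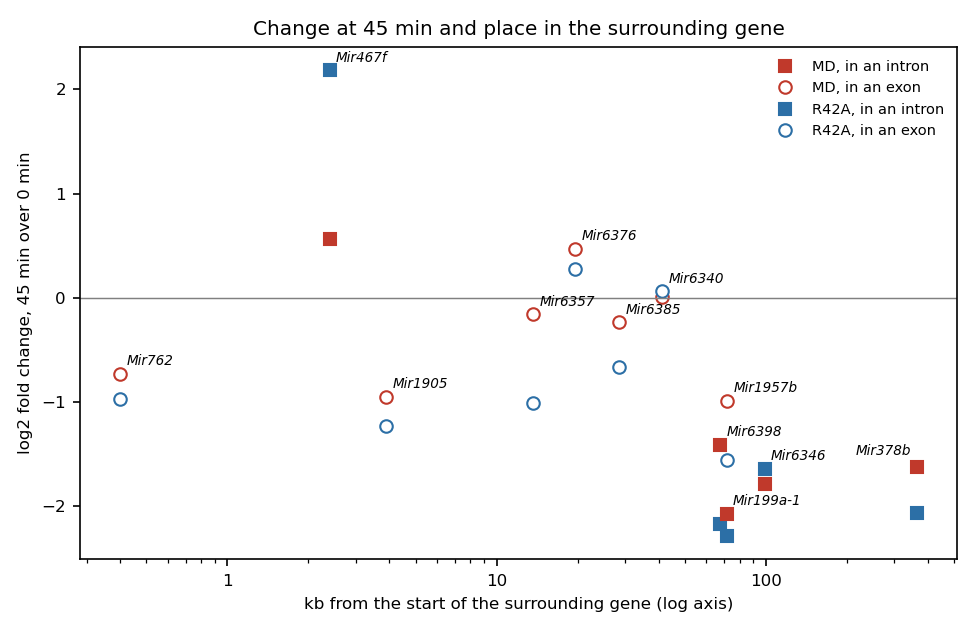
Log2 fold change at 45 over 0 min (y axis) of the 12 features opposite protein-coding genes, against their distance in kb from the start of that gene (x axis, log scale); filled squares lie in introns and open circles in exons. The 4 intronic features beyond 67 kb lie between -2.28 and -1.41 in both genotypes.

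At 240 against 45 min, 5 members were higher in MD cells (24.1% of all features) and 3 lower (24%), with a median of 0.037 over members and -0.027 over all features. In R42A cells 5 were higher (26.8%) and 4 lower (26.1%), with a median of -0.248 over members and -0.002 over all features. These shares stood a little above the background for the higher members and close to or below it for the lower ones in both genotypes.

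Mir378b returned in both genotypes. It had 15.0, 17.8, 12.4 and 9.76 CPM at 240 min, against 2.45, 4.67, 3.21 and 2.06 CPM at 45 min in MD cells (2.17 ± 0.28, edgeR adjusted p = 1.24e-08). R42A cells had 15.1, 11.8, 14.1 and 11.2 CPM at 240 min, against 3.03, 2.72, 1.57 and 2.85 CPM at 45 min (2.36 ± 0.29, adjusted p = 3.05e-09). All 240 min libraries were above all 45 min ones. Msi2 rose by 0.35 ± 0.15 in R42A cells (adjusted p = 0.0483), a call that ended without A04 (0.16, adjusted p = 0.606) and in 8 other leave-outs (adjusted p of 0.0571 to 0.151), and stood at 0.26 ± 0.15 in MD cells (adjusted p = 0.14).

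Mir199a-1 rose by 1.67 ± 0.35 in R42A cells (edgeR adjusted p = 8.73e-05) while Dnm2 fell by -0.81 ± 0.14 (adjusted p = 6.68e-06). In MD cells it rose by 1.02 ± 0.36 (adjusted p = 0.0162), which ended without MD09 (1.09, adjusted p = 0.13), without MD30 (0.98, adjusted p = 0.112), without replicate 1 or 2 (1.05 and 0.97, adjusted p = 0.0793 and 0.123) and without the 240 min replicate 1 of MD09 (0.85, adjusted p = 0.0737). Dnm2 fell by -0.86 ± 0.14 in MD cells. Mir6385 rose by 1.02 ± 0.23 in MD (adjusted p = 0.000275) and by 0.90 ± 0.22 in R42A cells (adjusted p = 0.000672), and Pml stood at 0.24 ± 0.18 and 0.28 ± 0.18 without passing.

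Mir6398 and Mir467f were lower at 240 than at 45 min in both genotypes. Mir6398 fell by -1.36 ± 0.37 in MD (edgeR adjusted p = 0.00208) and by -1.43 ± 0.42 in R42A cells (adjusted p = 0.00424), to 2.05 to 3.21 CPM in MD and 0.763 to 2.83 CPM in R42A libraries. Without replicate 2 it was -0.74 in MD (adjusted p = 0.25) and -1.24 in R42A cells (adjusted p = 0.0626), without MD09 -1.31 in MD (adjusted p = 0.0532), and without A04 -0.645 in R42A cells (adjusted p = 0.36), against -2.55 without A10. Mir467f fell by -0.85 ± 0.29 in MD (adjusted p = 0.0151) and by -1.35 ± 0.33 in R42A cells (adjusted p = 0.000554), beside Fxr2 at -1.51 ± 0.17 in MD and -2.09 ± 0.18 in R42A cells. Without replicate 2 the fall of Mir467f was -0.58 in MD (adjusted p = 0.305) and -1.15 in R42A cells (adjusted p = 0.0762), and in MD cells it also ended without MD09 or MD30 (-1.08 and -0.66, adjusted p = 0.0673 and 0.219), with DESeq2 (adjusted p = 0.0973), and without any of 3 single libraries, replicate 2 of either clone at 45 min or replicate 1 of MD30 at 240 min (-0.75 to -0.67, adjusted p of 0.0502 to 0.0726).

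The smaller changes at 240 min rested on single libraries or clones. Mir6340 was higher by 0.62 ± 0.23 in MD (edgeR adjusted p = 0.0221) and by 0.50 ± 0.21 in R42A cells (adjusted p = 0.0426). The MD call ended without MD09 (0.36, adjusted p = 0.459), without replicate 1 or 2 (0.60 and 0.66), and without replicate 2 of MD09 at 45 min or replicate 1 of either clone at 240 min (0.52 to 0.55). The R42A call ended in 13 of 22 alternatives, down to 0.14 without A10 (adjusted p = 0.743), with values of 0.41 to 0.50 without MD09, MD30, either replicate number, or any 45 or 240 min library of R42A cells other than replicate 2 of A04.

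Mir290b was higher by 0.49 ± 0.20 in MD cells (edgeR adjusted p = 0.0389). That call ended with DESeq2, without MD30 (0.32, adjusted p = 0.429) or MD09 (0.685, adjusted p = 0.0709), without either replicate number (0.47 and 0.545), and without replicate 2 of MD09 or replicate 1 of MD30 at 45 min or either MD30 library at 240 min (0.42 to 0.48). Mir6357 was higher by 0.82 ± 0.23 in R42A cells (adjusted p = 0.00215), at 0.66 without A10 (adjusted p = 0.101) and 0.63 without replicate 1 (adjusted p = 0.0654).

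Mir1905 was lower by -0.58 ± 0.21 in MD and -0.53 ± 0.21 in R42A cells (edgeR adjusted p = 0.0206 and 0.0304). In MD cells the call ended with DESeq2 and without MD09, MD30, either replicate number or replicate 1 of MD09 at 45 min (-0.59 to -0.52). In R42A cells it ended with DESeq2, with no clone term, and without A04 (-0.24, adjusted p = 0.555), replicate 2 (-0.40, adjusted p = 0.22) or replicate 2 of A04 or A10 at 240 min (-0.49 and -0.40). Mir150 was lower by -0.68 ± 0.24 in R42A cells (adjusted p = 0.014), and ended with DESeq2 and without A10 (-0.33, adjusted p = 0.482), replicate 2 (-0.59, adjusted p = 0.121), replicate 1 of A10 at 45 min (-0.52, adjusted p = 0.0767) or replicate 2 of A10 at 240 min (-0.45, adjusted p = 0.132).

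A feature and the gene around it were not always called alike, which is given as a description. The calls of a gene are of counts on its symbol, which need not measure its transcription. There were 13 such pairs, 12 with protein-coding genes and that of Mir142b with Mir142hg. At 45 against 0 min in MD cells, of 8 features called the gene was called the same way in 3, the other way in 1 and not called in 4. In R42A cells these were 4, 1 and 6 of 11. At 0 min against asynchronous cells they were 0, 0 and 6 of 6 in MD and 3, 2 and 2 of 7 in R42A cells. At 240 against 45 min they were 3, 1 and 3 of 7 in MD and 4, 2 and 2 of 8 in R42A cells. At 90 min between genotypes, of 6 features called in pairs, Mir142b among them, the gene was called the same way in 3 and not called in 3. Of the 13 genes, 5 were called at 45 against 0 min in MD (23.1% of all features higher, 17.1% lower) and 5 in R42A cells (25 and 21.6%). At 0 min they were 4 in MD (18 and 24.6%) and 8 in R42A cells (19.1 and 27.2%). At 240 min they were 5 in MD (24.1 and 24%) and 8 in R42A cells (26.8 and 26.1%). At 90 min between genotypes they were 3 (15.6 and 22.1%).

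Of the genes that make and use microRNAs, 23 of the listed symbols were matched and all 23 were tested. Their values are of counts on these symbols. Whether the counting used strand is not given for them either, so they need not measure transcription of the named gene. In MD against R42A cells 1 was higher and 3 lower in asynchronous cells (5.18 and 7.95% of all features), 3 and 3 at 45 min (10.3 and 7.33%), 5 and 5 at 90 min (15.6 and 22.1%), 3 and 2 at 180 min (6.55 and 7.46%), and 0 were called by edgeR at 0 and 240 min, where 4 and 6 were higher and 2 and 1 lower at an unadjusted p under 0.05. The median of the 23 lay between -0.038 and 0.15 in these 6 comparisons and that of all features between -0.133 and 0.008. Without replicate 1 the count at 90 min was 5 higher and 2 lower of 22 tested. Drosha, which makes the first cut, was higher by 0.94 in asynchronous MD cells (edgeR adjusted p = 6.76e-05) and by 0.75 at 90 min (adjusted p = 0.000278), which was 0.27 without replicate 1 (adjusted p = 0.287). Ago2, the Argonaute that can cut targets, was lower by -0.75 in asynchronous cells (adjusted p = 0.00282) and by -0.66 at 45 min (adjusted p = 0.00504). Tarbp2, a partner of Dicer1, was lower in MD cells by -0.54, -0.61, -0.76 and -0.60 in asynchronous cells and at 45, 90 and 180 min (adjusted p = 0.0185, 0.0245, 0.00261 and 0.00786). Without replicate 1 its 90 min value was -0.04 (adjusted p = 0.959).

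At 0 min against asynchronous cells 11 of 23 were higher and 2 lower in MD (18 and 24.6% of all features), and 10 higher and 4 lower in R42A cells (19.1 and 27.2%). The list's medians were 0.407 in MD and 0.237 in R42A cells, and those of all features -0.088 and -0.072. Trim71, a partner of the let-7 pathway in stem cells, rose by 1.02 in MD (edgeR adjusted p = 9.91e-07) and by 1.75 in R42A cells (adjusted p = 3.77e-12), and Lin28a by 1.00 in MD (adjusted p = 1.1e-05) and 1.60 in R42A cells (adjusted p = 1.26e-09). Tarbp2 fell by -2.28 in MD (adjusted p = 7.09e-12) and by -2.08 in R42A cells (adjusted p = 4.24e-12). At 45 against 0 min 6 were higher and 4 lower in MD (23.1 and 17.1% of all features) and 8 and 6 in R42A cells (25 and 21.6%), with Xpo5, the exporter of precursor hairpins, higher by 1.12 in MD (adjusted p = 8.9e-06) and 1.08 in R42A cells (adjusted p = 5.66e-06). At 240 against 45 min 4 were higher and 9 lower in MD (24.1 and 24% of all features) and 5 and 9 in R42A cells (26.8 and 26.1%), with Dicer1 higher by 2.001 in MD (adjusted p = 2.33e-14) and 2.41 in R42A cells (adjusted p = 2.96e-16).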

How the data were processed

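EU-labelled nascent RNA was measured in 48 libraries of mouse embryonic stem cells, captured with a Click-iT kit and built with a KAPA Hyper Prep kit, per the labels' protocols. The submitters' processing notes list Trim Galore 0.60, STAR 2.7.1a, RSEM 1.3.0 and mm10, with no role or order. Each library has 1 deposited table of raw whole-number counts by gene symbol, which the authors had not normalized. The 5 counter entries were left out of totals and tests, and reads in no feature made up 90.2 to 94.0% and ambiguous reads 0.129 to 0.262% of a table.

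CPM were computed on the total of the gene symbols, with no TMM scaling. Places came from GENCODE M21. The 2 libraries of each clone and state were summed to 24 sums, the clone being the replicate (n = 2 per genotype). Features past filterByExpr (minimum count 10, total 15) numbered 23874, scaled by TMM and tested with edgeR 4.0.16 (R 4.3.3, robust quasi-likelihood, Benjamini-Hochberg over all features at 0.05), with 12 group means between genotypes and a term per clone over time. Between genotypes the p-values measure the spread between 2 clones, and over time the spread left after the clone term. Each fit shares its estimate of the spread over all groups. Whether the 2 libraries of a clone were separate cultures is not given in the sources used here. Chi-square over degrees of freedom between them was 1.085 to 26.8, so none was counted as a duplicate. The tests were checked on simulated counts. Intervals and the floor of 3 counts cover counting error only.

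The members, the lists and the tests were chosen with earlier results of these data known. Named were the 8 members with most counts, up to 4 called members per direction and comparison, members of listed clusters, the genes around them, and those next to the threshold; other called members were named after their values were seen. The alternatives were clones, libraries and replicate numbers left out, the 48 libraries fitted singly with and without a replicate block, no clone term, no filter, DESeq2's size factors and DESeq2 1.42.0. Fits without the 90 min libraries, and without CT010467.2 and mitochondrially encoded features, were added after the data were seen.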

Additional observations from a re-analysis of the deposited data

Results flagged for a closer look

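In 7 of 192 groups of 4 libraries, 1 library stood far from the other 3, where chance gives about 1 in 20. Mir6385 had 26.7 CPM in replicate 2 of MD30 at 240 min, with 19.3 to 20.2 CPM in the others. Mir1957b had 25.74 CPM in replicate 2 of MD30 at 0 min, with 17.6 to 18.6 CPM in the others, and 15.8 CPM in replicate 1 of A10 at 90 min, with 12.4 to 12.8 CPM in the others. Mir290b had 19.1 CPM in replicate 2 of A10 at 240 min, with 16.5 to 16.8 CPM in the others. Mir467f had 10.91 CPM in replicate 2 of A10 in asynchronous cells, with 4.48 to 5.02 CPM in the others. Low libraries were replicate 2 of MD09 in asynchronous cells for Mir6346 (7.247 CPM, with 13.8 to 14.7 CPM in the others) and replicate 2 of A04 at 240 min for Mir6376 (4.956 CPM, with 6.52 to 6.83 CPM in the others).

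At 0 min against asynchronous cells, the mean level of Mir6357 changed by -2.614 CPM in MD and by 7.04 CPM in R42A cells, downward in both MD clones and upward in both R42A clones. These CPM were not scaled by TMM, as the tests were, so the sizes can differ. The difference between the genotypes was not tested, and neither change passed the test (edgeR adjusted p = 0.0682 in MD and 0.501 in R42A cells).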

How the results depend on the processing

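Of 69 member calls, 22 held under every alternative run and 47 ended under at least one, while 17 member values that were not called passed in some. These calls, and the counts between genotypes below, include Mir142b, whose values between genotypes are descriptions. They also include Mir3074-2 at 45 min, which its R42A libraries there helped past the threshold. With one clone, library or replicate number left out, the number of members called in MD against R42A cells ran from 0 to 2 in asynchronous cells (1 as reported), at 0 min (1) and at 45 min (2), from 2 to 10 at 90 min (7), from 0 to 2 at 180 min (1) and from 0 to 1 at 240 min (1). At 0 min against asynchronous cells it ran from 5 to 8 in MD (8) and from 6 to 10 in R42A cells (10), at 45 against 0 min from 5 to 9 in MD (8) and from 8 to 13 in R42A cells (13), and at 240 against 45 min from 2 to 10 in MD (8) and from 4 to 9 in R42A cells (9). The lowest counts between genotypes came without MD09 or MD30, at 90 min without replicate 1, and at 0 min also without either replicate number or without replicate 1 of A04 at 0 min. Over time they came without MD09 or MD30 and, at 0 min, replicate 2 in MD cells, and without A10, replicate 1 (0 min) or replicate 2 (240 min) in R42A cells. Single libraries whose removal raised the count to 2 were replicate 2 of MD30 (asynchronous), of A04 (0 min) and of A10 (180 min), and at 90 min leaving out MD09, or its replicate 1 alone, lowered it to 3 and leaving out A04 or A10 to 4. At 45 min it was 1 without MD09, A10 or replicate 2. For MD at 240 against 45 min it was 5 without replicate 2 of MD09 at 45 min or replicate 1 of MD30 at 240 min. The cause was not tested.

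At 0 min the count between genotypes was 2 with DESeq2, 3 with no filter on low counts, 2 with the 48 libraries fitted singly with no replicate block, 3 with the replicate block and 2 without the 90 min libraries. For MD at 240 against 45 min it was 5 with DESeq2. Of member values, Mir150 (0.15) and Mir6346 (-0.427) turned without replicate 1 at 90 min, and Mir1957b (-0.037) without replicate 1 of MD09. Without replicate 2 these 3 were -7.323, 2.012 and 1.221, the first from 0 counts in both replicate 1 libraries and so no measure of size. Replicate numbers were not taken to pair the samples, since only 18 of 276 correlations of their differences (-0.135 to 0.762, median 0.001) were over 0.1. These pairs mix differences from separate states. Within a condition the correlations ran from -0.077 to 0.762, and pairing state by state was not tested. The highest, 0.762, was that of both MD clones at 90 min, whose replicate 1 libraries did deviate together. With all 48 libraries fitted, the block moved no other count of calls by over 1.5 times.

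DESeq2's size factors in place of TMM moved the median of all features by 0.132 at 90 min between genotypes, by 0.129 in MD and 0.135 in R42A cells at 0 min against asynchronous cells, and by -0.137 in MD cells at 45 against 0 min. Depth limits the rarer features most: Mir142b had 0 to 42 counts per library and Mir3074-2 1 to 24.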
